A study of Mus musculus with 4 samples.

Results

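Primitive endoderm genes were described in 2 induced pluripotent stem (iPS) cell lines, an embryonic stem (ES) cell line and mouse embryonic fibroblasts (MEF). The 10 genes were Gata4, Gata6, Sox17, Sox7, Foxa2, Hnf4a, Dab2, Cubn, Lrp2 and Sparc, chosen as regulators and markers of this lineage, out of 19938 genes measured. Each gene took the mean of the probe sets whose only gene symbol it was, 11 probe sets in all, and 10 of 10 genes were measured. Total RNA of each cell population was hybridised to 1 Affymetrix array, which gave 4 arrays: iPS 178B5, iPS 492B4, ES v6.5 and MEF. Both iPS lines and the MEF had a mixed DBA/2, C57BL/6 and 129S4 background, while ES v6.5 came from a cross (F1) of 129 with C57BL/6. Strain and cell origin therefore cannot be told apart between iPS and ES. The labels name no treatment for the lines, no sex or passage and, for iPS, no reprogramming factors. The pluripotent lines grew on SNL cells, a fibroblast feeder layer that carried puromycin resistance and was stopped from dividing with mitomycin C, in ES cell medium with serum, and the MEF grew without feeders in medium with serum. Each line was 1 line and 1 array, so differences between arrays include both biological and technical spread.

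Primitive endoderm is the cell layer that forms beside the epiblast in the mouse blastocyst and later gives rise to the parietal and visceral endoderm of the yolk sacs. FGF4 from epiblast precursors acts through FGF receptors and ERK to raise Gata6 in its precursors, and Gata6 opposes Nanog. Gata4, Sox17 and Sox7 follow, and the maturing layer switches on Dab2, the endocytic receptors cubilin and megalin, and basement membrane proteins. Cultures of mouse ES cells are known to hold a small and variable fraction of cells that express such genes.

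The deposited values had been centred on the median of the 4 arrays for each probe set, to within 5e-07. They therefore give differences between arrays for a gene and no levels, and genes cannot be ranked by abundance or set against background signal. All values and differences are on the log2 scale, with the log base taken as 2, since it was not stated. The median difference over all genes was -0.04 for iPS 178B5 minus ES, -0.07 for iPS 492B4 minus ES and -0.02 for iPS 492B4 minus iPS 178B5, and -0.11, -0.13 and -0.06 for iPS 178B5, iPS 492B4 and ES minus MEF. Of 12 epiblast factors, among them Pou5f1, Nanog and Sox2, 11 were called higher in iPS than in MEF, beside 9.94% of all genes. In ES 11 were called higher than in MEF, beside 9.14% of all genes. Calls were made by limma at an adjusted p under 0.05 and at least 1 log2.

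All 10 genes were higher on both iPS arrays than on the ES array, a pattern found in 31.0% of all genes. For Gata4, Gata6, Sox17, Cubn and Lrp2 both iPS arrays lay at least 1 log2 above ES, 5 of 10 genes beside 0.958% of all genes. The 10 genes were chosen with earlier results of these data known, so the shares beside their counts are a description only. In iPS 178B5 8 of 10 were at least 1 log2 above ES (1.43% of all genes), with a median difference of 1.22 over the 10. In iPS 492B4 5 of 10 were (2.53% of all genes), with a median of 1.14. In each line 0 of 10 were at least 1 log2 below ES, beside 1.32% of all genes in iPS 178B5 and 2.20% in iPS 492B4. Both iPS arrays were above both ES and MEF for 8 of 10 genes (16.8% of all genes), and by at least 1 log2 for 4, Gata4, Gata6, Cubn and Lrp2 (0.542% of all genes). In the limma fit of iPS against ES 0 of 10 passed an adjusted p of 0.05, with adjusted p between 0.0996 and 0.391, and 0.00% of all genes were called. Each iPS value in it is the mean of 2 arrays, set against 1 ES array. The SD between the 2 iPS arrays ran from 0.103 for Sparc to 0.734 for Cubn over the 10 genes (n = 2). That fit took its spread from the 2 iPS lines alone, with 1 residual degree of freedom, and assumed that the lone ES array varied like them. At an unadjusted p under 0.05 9 of 10 genes passed, beside 15.4% of all genes. The number of calls turned on small shifts between arrays: with equal array medians 15 genes were called higher and 29 lower, and with arrays centred on reference genes 40 and 84, and Gata6 was then called (adjusted p = 0.0451). In bulk RNA, more cells of a type and more RNA per cell cannot be told apart.

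**Figure D1:**
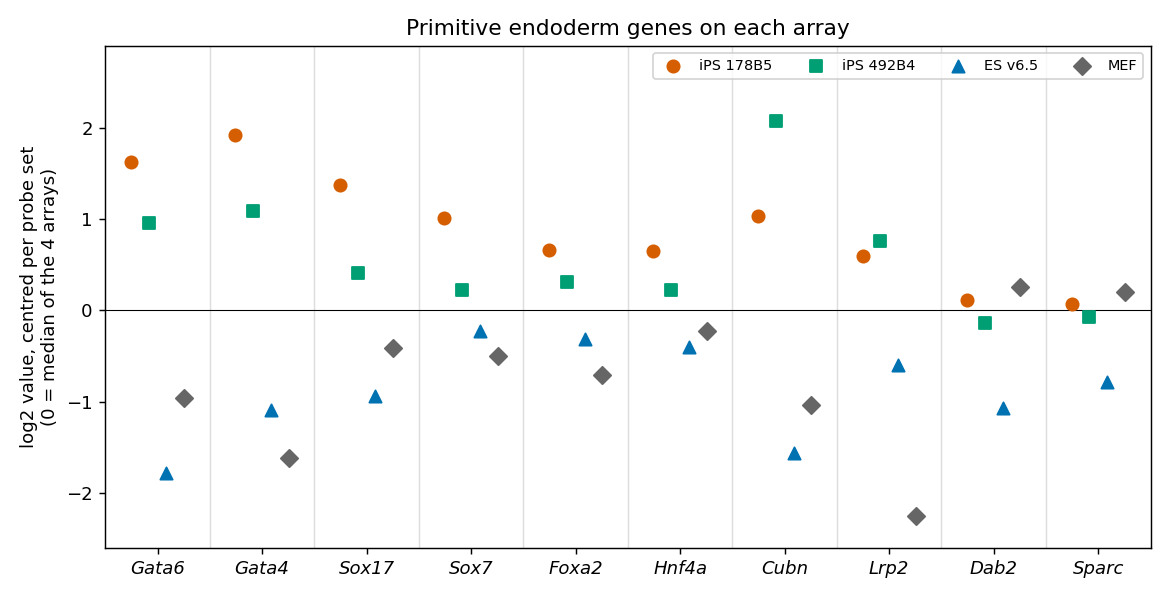
Centred log2 value (vertical axis) of each of the 10 genes (horizontal axis) on the 4 arrays, 1 point per array, with 0 the median of the 4 arrays. For 8 genes both iPS points lie above the ES and MEF points; for Dab2 and Sparc the MEF point is the highest and the ES point the lowest.

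Gata6, a zinc finger transcription factor that directs cells of the inner cell mass to primitive endoderm, had values of 1.62 in iPS 178B5, 0.96 in iPS 492B4, -1.79 in ES and -0.96 in MEF. Both iPS arrays were high, and the ES array was the lowest. Gata6 stood 10.6-fold above ES in iPS 178B5 and 6.71-fold above it in iPS 492B4. It ranked 2 among 19938 genes by its excess over ES in iPS 178B5 and 13 in iPS 492B4. The iPS mean was 3.08 above ES (95% interval 2.20 to 3.96), with an adjusted p of 0.0996 in limma.

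Gata4, a related factor that acts after Gata6 in this lineage and also in heart and gut, had values of 1.92 in iPS 178B5, 1.09 in iPS 492B4, -1.09 in ES and -1.62 in MEF. Both iPS arrays lay far above the ES and MEF arrays, which differed from each other by 0.53. The excess over ES was 8.05-fold in iPS 178B5, rank 6 of all genes, and 4.51-fold in iPS 492B4, rank 34. The iPS mean was 2.59 above ES (95% interval 1.52 to 3.67, adjusted p = 0.148 in limma).

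Sox17 and Sox7 are SoxF factors of extraembryonic endoderm, which are also known from endothelium. Sox17 had values of 1.37 in iPS 178B5, 0.41 in iPS 492B4, -0.94 in ES and -0.41 in MEF. Sox7 had values of 1.02, 0.22, -0.22 and -0.50 in the same order of arrays. For both genes iPS 178B5 was the highest array, while iPS 492B4 lay 0.82 above MEF for Sox17 and 0.44 above ES for Sox7. The iPS mean stood above ES by 1.83 for Sox17 (95% interval 0.62 to 3.05, adjusted p = 0.231 in limma) and by 0.84 for Sox7. The interval for Sox7 ran from -0.19 to 1.87 and was the only 1 of the 10 that held 0.

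Foxa2, a forkhead factor of visceral and definitive endoderm, had values of 0.67 in iPS 178B5, 0.32 in iPS 492B4, -0.32 in ES and -0.71 in MEF. Hnf4a, a nuclear receptor of visceral endoderm and liver, had values of 0.65, 0.23, -0.40 and -0.23 in that order. For both genes iPS 178B5 was the highest array and iPS 492B4 the next, as for the GATA and Sox genes. The difference from ES was 0.98 and 0.63 for Foxa2 and 1.05 and 0.62 for Hnf4a, in iPS 178B5 first and iPS 492B4 second.

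Cubn encodes cubilin and Lrp2 encodes megalin, the partner receptors with which visceral endoderm takes up nutrients. Cubn had values of 1.04 in iPS 178B5, 2.08 in iPS 492B4, -1.56 in ES and -1.04 in MEF. Its excess over ES was 6.08-fold in iPS 178B5 and 12.5-fold in iPS 492B4, where it ranked 2 among all genes. Lrp2 had values of 0.60 in iPS 178B5, 0.76 in iPS 492B4, -0.60 in ES and -2.25 in MEF. Unlike Cubn, Lrp2 was also higher in ES than in MEF, and its excess over ES was 2.30-fold in iPS 178B5 and 2.57-fold in iPS 492B4. In limma the iPS mean stood above ES by 3.12 for Cubn (95% interval 1.82 to 4.43, adjusted p = 0.148) and by 1.28 for Lrp2 (0.85 to 1.71, adjusted p = 0.113).

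Dab2, a clathrin adaptor that binds the tail of megalin, and Sparc, a secreted matrix protein made in quantity by parietal endoderm, are both also expressed in fibroblasts. Dab2 had values of 0.11 in iPS 178B5, -0.14 in iPS 492B4, -1.06 in ES and 0.26 in MEF. Sparc had values of 0.07, -0.07, -0.79 and 0.21 in the same order. For both genes the ES array was low and the other 3 arrays lay within 0.40 and 0.28 of each other. The 2 probe sets of Dab2 disagreed. The probe set that maps to its RefSeq transcripts had values of 0.21 in iPS 178B5, -0.21 in iPS 492B4, -2.25 in ES and 0.53 in MEF, which put the iPS lines 2.46 and 2.04 above ES. The other, which is tied to a single cDNA, had values of 0.01, -0.07, 0.12 and -0.01.

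**Figure D2:**
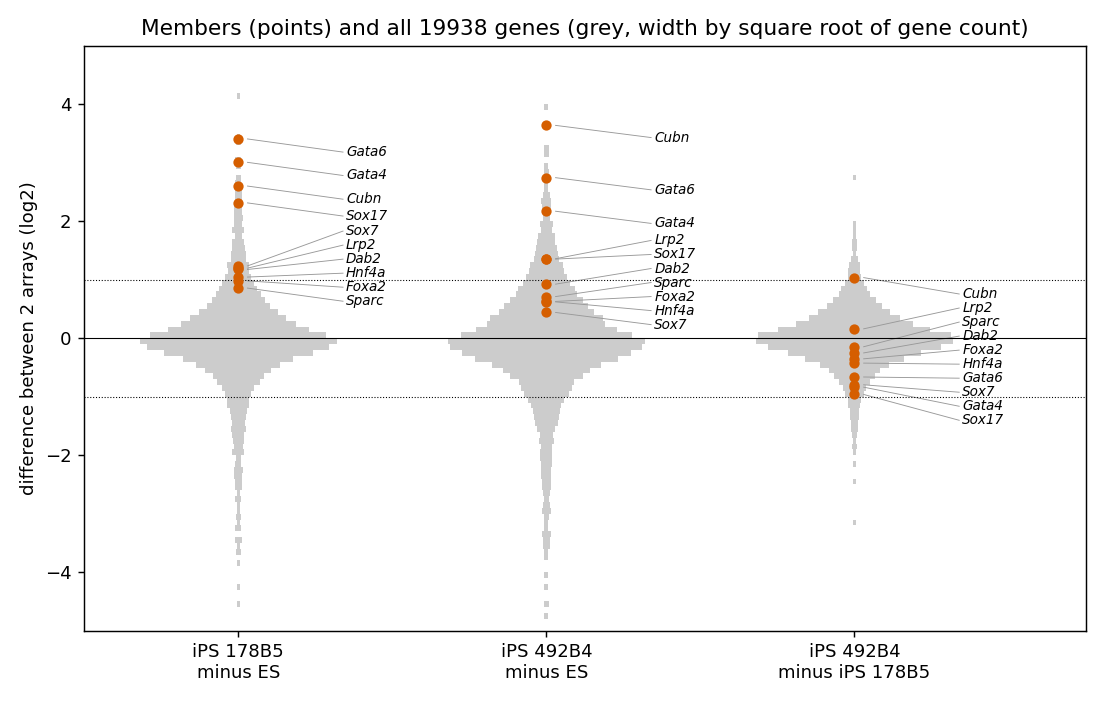
Difference between 2 arrays in log2 (vertical axis) for the 10 genes (orange points) and all 19938 genes (grey, with width by the square root of the number of genes), for each iPS line minus ES, which share the ES array, and for iPS 492B4 minus iPS 178B5. Gata6 at 3.41 and Gata4 at 3.01 lead the 10 in iPS 178B5, and Cubn at 3.64 leads in iPS 492B4; dotted lines mark 1 log2 in either direction.

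Between the iPS lines, the 6 transcription factor genes were all lower in iPS 492B4 than in iPS 178B5, and the 2 endocytic receptor genes were higher. Over all 19938 genes 10589 were lower and 9324 higher. The difference, iPS 492B4 minus iPS 178B5, was -0.96 for Sox17, -0.84 for Gata4, -0.80 for Sox7, -0.66 for Gata6, -0.42 for Hnf4a and -0.35 for Foxa2. It was 1.04 for Cubn and 0.16 for Lrp2. Dab2 stood at -0.25 and Sparc at -0.15. Over all genes 95% of these differences were within 0.573 in size, and Sox17, Gata4, Sox7, Gata6 and Cubn lay outside that range. Lrp2, Hnf4a, Foxa2, Dab2 and Sparc lay inside it. Cubn was the only 1 of the 10 at 1 log2 or more, beside 0.291% of all genes as far higher in iPS 492B4 and 0.321% as far lower. With 1 array per line these differences have no replicate check. With reference centring Cubn stood at 0.99 and Sox17 at -1.01, so that the 1 gene past 1 log2 was then Sox17.

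The regulatory windows of members are shown because GATA factors are among the genes that were high together. The letters searched for GATA factors were AGATAA with its variant AGATAG, and the pair TGATAA with its variant TGATAG. RefSeq sequence of build GRCm38.p6 was matched for 6 members (Foxa2, Hnf4a, Dab2, Cubn, Lrp2 and Sparc), with 10 windows of the 250 bases before an annotated start. Gata6 was not looked up, and Gata4, Sox17 and Sox7 had no match. On either strand 3 of the 10 windows held such letters, 1 each for Foxa2, Hnf4a and Dab2, beside 26.5% of 32851 windows of all genes. The 4 windows below run 5′ to 3′ on the gene's strand, with GATA letters in capitals; those of Cubn and Lrp2 are shown as the 2 partner receptors. They are chr2:163506607-163506856 on the plus strand for Hnf4a, chr15:6299539-6299788 on the plus strand for Dab2, chr2:13491877-13492126 on the minus strand for Cubn and chr2:69586030-69586279 on the minus strand for Lrp2.
Hnf4a: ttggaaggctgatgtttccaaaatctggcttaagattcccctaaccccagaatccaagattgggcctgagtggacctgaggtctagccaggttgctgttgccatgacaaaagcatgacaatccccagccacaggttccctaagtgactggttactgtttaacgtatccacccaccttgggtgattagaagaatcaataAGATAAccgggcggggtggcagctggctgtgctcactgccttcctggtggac
Dab2: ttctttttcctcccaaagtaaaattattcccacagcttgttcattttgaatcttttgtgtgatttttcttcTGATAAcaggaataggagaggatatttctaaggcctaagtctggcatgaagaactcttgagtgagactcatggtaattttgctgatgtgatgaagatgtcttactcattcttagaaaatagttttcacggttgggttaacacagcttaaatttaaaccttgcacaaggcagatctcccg
Cubn: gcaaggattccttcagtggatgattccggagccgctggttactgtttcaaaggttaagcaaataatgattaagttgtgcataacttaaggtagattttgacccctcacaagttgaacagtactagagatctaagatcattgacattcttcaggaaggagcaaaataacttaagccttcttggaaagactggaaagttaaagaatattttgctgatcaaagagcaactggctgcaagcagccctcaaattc
Lrp2: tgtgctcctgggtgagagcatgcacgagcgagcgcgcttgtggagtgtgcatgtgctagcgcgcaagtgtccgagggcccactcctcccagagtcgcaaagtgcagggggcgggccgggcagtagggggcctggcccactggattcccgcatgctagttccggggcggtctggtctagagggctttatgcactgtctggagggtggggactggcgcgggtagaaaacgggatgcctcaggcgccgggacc
The Hnf4a motif ends 46 bases before the start that its window precedes, and the Dab2 motif 173 bases before its own. The other windows of Hnf4a, Dab2 and Foxa2, before other annotated starts, held no GATA letters. The windows of Cubn, Lrp2 and Sparc held no GATA letters, which were found in 26.5% of all windows. Of letters bound by FOXA factors, neither TGTTTAC nor the variant TGTTTGC was found in the 10 windows, on either strand, beside 7.29% of all windows. Letters bound by SOX factors, searched as ACAATG, the variant ACAATA and the further variant ACAAAG, were found in 1 of them, for Foxa2, beside 30.5% of all windows. A match describes the letters only.

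Against fibroblasts, 5 of 10 genes rose in the iPS lines and 0 fell, beside 9.94% and 11.2% of all genes called higher and lower (1981 and 2235 genes, or 1588 and 2803 with reference centring). Gata4 rose by 3.12 (95% interval 2.04 to 4.20, adjusted p = 0.00981 in limma), with both iPS arrays above MEF by 3.54 and 2.70. Lrp2 rose by 2.93 (2.51 to 3.36, adjusted p = 0.00236), Cubn by 2.60 (1.29 to 3.90, adjusted p = 0.0227), Gata6 by 2.25 (1.37 to 3.14, adjusted p = 0.0127) and Foxa2 by 1.20 (0.63 to 1.77, adjusted p = 0.0198). Sox17 at 1.30 (adjusted p = 0.0954), Sox7 at 1.12 (0.0920) and Hnf4a at 0.66 (0.101) did not pass. Dab2 at -0.27 and Sparc at -0.21 did not pass either, with adjusted p of 0.296 and 0.351.

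In ES against MEF, 1 of 10 genes rose and 1 fell, beside 9.14% and 10.9% of all genes. Lrp2 rose by 1.65 (95% interval 1.16 to 2.15, adjusted p = 0.0104 in limma). Dab2 fell by 1.32 as the mean of its probe sets (adjusted p = 0.0196), and by 2.78 on the probe set of its RefSeq transcripts (adjusted p = 0.00868). Sparc at -0.99 had an adjusted p of 0.0260 and lay just under the fold minimum; with reference centring it stood at -1.13 and was called. Gata6 at -0.82, Sox17 and Cubn at -0.53 each and Hnf4a at -0.17 had adjusted p of 0.198 or more. For Gata6, Sox17, Cubn and Hnf4a both iPS arrays lay above MEF and the ES array below it, 4 of 10 genes beside 4.14% of all genes. The iPS and ES comparisons with MEF share the MEF array. Both took their spread from the 2 iPS lines alone and assumed that the lone ES and MEF arrays varied like them. ES against MEF set 1 array against 1 array, so its intervals and p-values hold no spread of either sample.

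**Figure D3:**
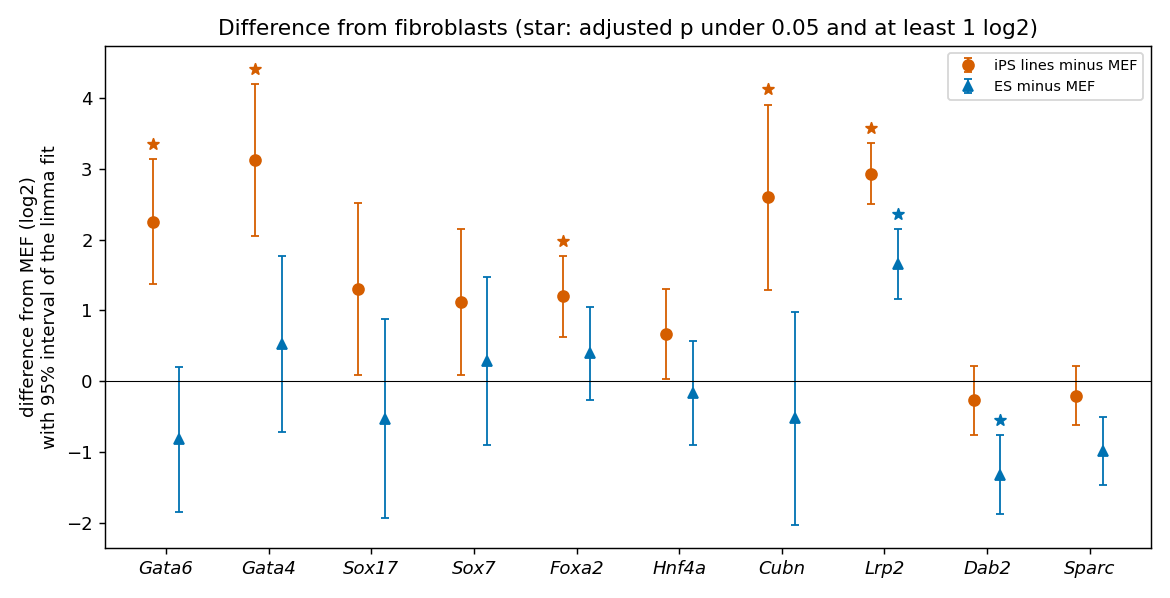
Difference from MEF in log2 (vertical axis) for the 2 iPS lines together (orange circles) and for ES (blue triangles), per gene, with the 95% interval of the limma fit; a star marks an adjusted p under 0.05 with at least 1 log2. Stars stand over Gata6, Gata4, Foxa2, Cubn and Lrp2 for iPS, and over Lrp2 and Dab2 for ES. The spread in all intervals came from the 2 iPS lines alone.

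When the 3 pluripotent lines were set against MEF as 1 group, 1 of 10 genes, Lrp2, rose (2.51, 95% interval 0.91 to 4.10, adjusted p = 0.0476 in limma), beside 7.90% of all genes called higher and 9.71% lower (1576 and 1936 genes, or 1308 and 2504 with reference centring). Leaving out iPS 178B5 ended that call (adjusted p = 0.119), as did leaving out iPS 492B4 (0.0838) and setting equal array medians (0.0537). In this fit the low ES array and the high iPS arrays count as spread among replicates. Gata4 stood at 2.26 with a 95% interval of -1.01 to 5.52, and Gata6 at 1.23 with one of -2.57 to 5.02. Without ES the same 5 genes were called as in iPS against MEF, since the fit is then the same.

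Other genes of the lineage were counted from a list of 35, of which 33 were measured. Of these 13 were at least 1 log2 above ES on both iPS arrays and 0 were as far below, beside 0.958% and 1.09% of all genes. The list was drawn up with earlier results of these data known, so this count describes the list and is no independent evidence. The list's median difference from ES was 0.98 in iPS 178B5 and 0.45 in iPS 492B4, against -0.04 and -0.07 over all genes. Srgn, the proteoglycan core protein serglycin, led all 19938 genes in both lines, at 4.17 above ES in iPS 178B5 and 3.98 in iPS 492B4 (adjusted p = 0.0529 in limma). The basement membrane genes Lama1 (3.40 and 2.76), Col4a1 (2.18 and 1.63), Lamb1 (2.04 and 1.51), Col4a2 (1.86 and 1.28) and Lamc1 (1.69 and 1.02) were above ES in both lines, in the order iPS 178B5 and iPS 492B4. So were Stra6, a retinol transporter (2.32 and 1.61), Aqp8, a water channel (2.69 and 1.20), Krt19, a keratin (2.05 and 1.72), and Pth1r, the receptor for parathyroid hormone-related peptide (2.15 and 1.32). Not all genes of the list lay so far above ES. The basement membrane gene Nid1 stood at 0.12 and 0.07 in the same order, and Pdgfra at 0.93 and 0.10. Fst stood at 1.05 and -0.29, and Thbd at 0.07 and -1.79.

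Some further genes of the list, named after their values were seen, are known from visceral endoderm. Afp, alpha-fetoprotein, differed from ES by 0.14 in iPS 178B5 and -0.20 in iPS 492B4, and Ttr, transthyretin, by -0.10 and -0.19. Apoa1 stood at -0.23 and -0.27, and Apob at -0.01 and -0.11. Rbp4, a retinol carrier, was above ES by 1.55 as the mean of both lines (adjusted p = 0.0912 in limma). Amn, which encodes the membrane anchor of cubilin, stood at 0.21 and 0.38. Among 8 endocytic partners measured, 7 were above ES on both iPS arrays (31.0% of all genes). The exception, Lrp1, a relative of megalin and abundant in fibroblasts, differed from ES by -1.40 and -1.17. At least 1 log2 above ES on both arrays were 0 of the 8, beside 0.958% of all genes. At that share 0 of 8 is no result about them.

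Against MEF, 9 of the 33 other genes of the lineage rose in the iPS lines and 7 fell, beside 9.94% and 11.2% of all genes. In ES 4 of the 33 rose and 11 fell, beside 9.14% and 10.9% of all genes. Srgn rose by 5.96 and Lama1 by 5.52 in iPS (adjusted p = 0.00187 and 0.00249 in limma). In ES, Srgn and Lama1 also rose against MEF, by 1.88 and 2.44. Col4a1 fell in ES by 1.81, Col4a2 by 2.05 and Rbp4 by 1.82. Col4a1, Col4a2 and Rbp4 were not called in iPS against MEF. Fst, the activin antagonist follistatin, fell by 2.98 in iPS and by 3.36 in ES.

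Of 12 paralogues of the members measured, 0 were at least 1 log2 above ES on both iPS arrays, beside 0.958% of all genes, a share at which 0 of 12 is no result about them. Of the 12, 1, Smoc1, a relative of Sparc, was above ES on both iPS arrays (0.35 in iPS 178B5 and 0.22 in iPS 492B4), beside 31.0% of all genes. Below ES on both were 8. The share of all genes below it on both was not counted, so the 8 are a description only. Over all 19938 genes, counted per line, 11467 were below ES in iPS 178B5 and 11779 in iPS 492B4. Gata2 and Gata3, blood and trophoblast factors, differed from ES by -0.47 and -0.54 in iPS 178B5 and by -0.57 and -0.86 in iPS 492B4. Gata5 stood at 0.04 and -0.11, Foxa1 at -0.03 and -0.10 and Sox18 at 0.04 and -0.20, in iPS 178B5 and iPS 492B4.

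Markers of other lineages were counted in the same way, beside 0.958% of all genes at least 1 log2 above ES on both iPS arrays and 1.09% as far below, so that a count of 0 in a list this short is no result about it. Of 11 primitive streak and definitive endoderm genes 0 were 1 log2 from ES on both arrays, with medians of -0.03 in iPS 178B5 and -0.11 in iPS 492B4. Otx2, which is expressed in epiblast and visceral endoderm alike, was above ES by 0.98 and 0.84. Of 12 epiblast factors 0 were 1 log2 from ES on both arrays. Nanog differed from ES by -0.10 and -0.11, and Pou5f1 by -0.23 and -0.06. Nr0b1, a nuclear receptor of ES cells, stood at -0.88 and -1.17. Of 12 trophoblast markers 0 were 1 log2 from ES on both arrays, with medians of -0.49 and -0.46. Gata2 and Gata3 are in this list too.

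Of the FGF and ERK list, 1 of 16 genes was at least 1 log2 from ES on both iPS arrays, Egr1, an immediate early gene of ERK signalling, at -1.34 in iPS 178B5 and -2.11 in iPS 492B4, beside 0.958% of all genes as far above ES and 1.09% as far below. Fgf4, the ligand, differed from ES by -0.29 and 0.05, and Fgfr2, a receptor of primitive endoderm precursors, by -0.24 and -0.83. The ERK target genes Spry4 and Dusp6 stood at -0.30 and -0.38 in iPS 178B5 and at -0.71 and -0.72 in iPS 492B4. Other genes of the list lay above ES on both arrays, among them Dusp4 (0.24 and 0.17), Etv5 (0.15 and 0.08) and Fgfr3 (0.75 and 0.91). Of the 16 genes 6 were above ES on both arrays, beside 31.0% of all genes, and 8 were below it on both. The share of all genes below ES on both arrays was not counted, so these counts are a description only.

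Fibroblast markers moved the other way. Of 21 measured, 14 were at least 1 log2 below ES on both iPS arrays and 0 above, beside 1.09% and 0.958% of all genes, with medians of -1.53 in iPS 178B5 and -1.68 in iPS 492B4. Their centred values ran from -1.73 to -0.03 on the iPS 178B5 array, from -2.42 to 0.23 on iPS 492B4, from -0.23 to 1.73 on ES and from 0.70 to 6.02 on MEF. All 21 fell in iPS against MEF, beside 11.2% of all genes, and 18 of 21 in ES against MEF, beside 10.9%. Prrx1, a mesenchymal transcription factor, differed from ES by -3.20 in iPS 178B5 and -4.02 in iPS 492B4, and Postn, a matrix protein, by -3.47 in each line. The 10 members lay above ES in both iPS lines, beside 31.0% of all genes, and 20 of the 21 markers below it in both. The exception, Pdgfrb, a receptor for platelet-derived growth factor, differed from ES by -0.78 in iPS 178B5 and 0.46 in iPS 492B4. The share of all genes below ES in both lines was not counted. Over all 19938 genes, counted per line, 11467 were below ES in iPS 178B5 and 11779 in iPS 492B4. Dab2, as the mean of its probe sets, and Sparc were highest on the MEF array and lay above ES in both iPS lines. The Dab2 probe set tied to a single cDNA differed from ES by -0.11 in iPS 178B5 and -0.19 in iPS 492B4. The part of feeder or other fibroblast RNA in the differences between ES and iPS was not tested.

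**Figure D4:**
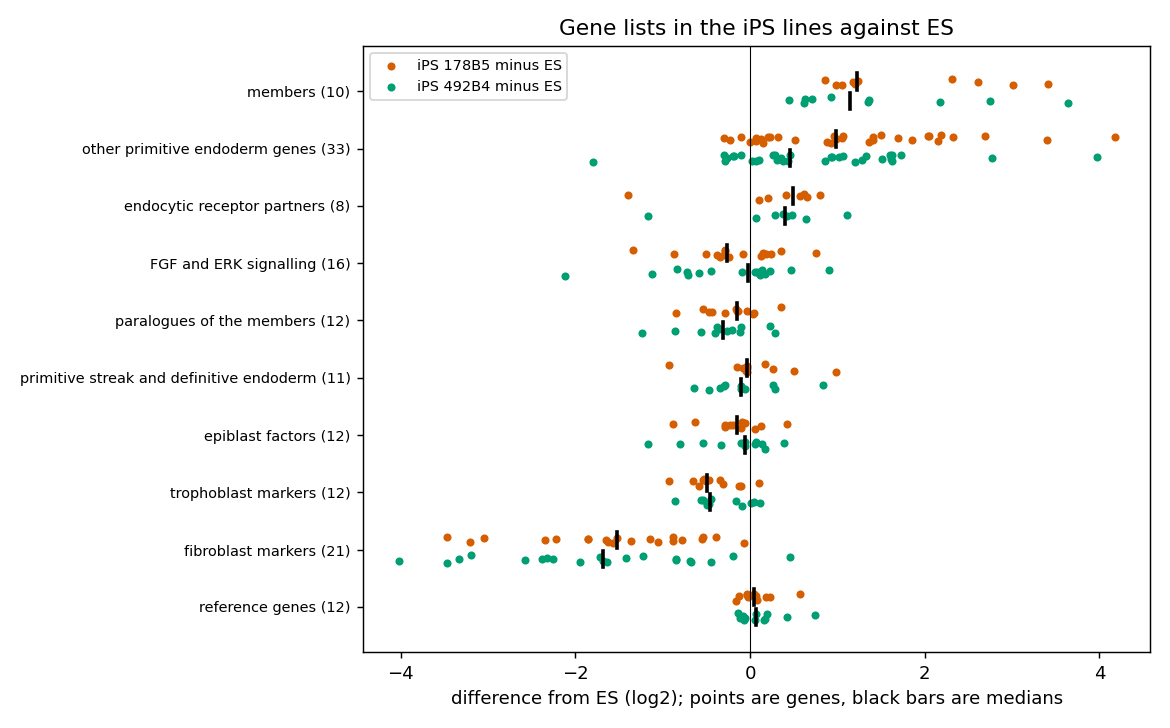
Difference from ES in log2 (horizontal axis) of each measured gene of 10 lists (rows, number of genes in brackets), with iPS 178B5 in orange above and iPS 492B4 in green below within each row, and black bars at the medians. The 10 members have medians of 1.22 and 1.14 and the fibroblast markers of -1.53 and -1.68; the 2 comparisons share the ES array.

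The genes closest to each member were found by the root mean square distance of the 4 centred values, over all 19938 genes. Nearest to Sox17 was Pth1r at a distance of 0.0811 log2, with Ptk6 (0.109) and Stra6 (0.217) next. Nearest to Gata4 was Clu, clusterin, at 0.193, followed by Nxf3 at 0.220. Nearest to Gata6 was Hs3st1, a heparan sulphate sulphotransferase, at 0.266, with Slc34a2, a phosphate transporter, at 0.359. Pla2g12b was the third for both, at 0.358 from Gata4 and 0.360 from Gata6. Nearest to Cubn was 4933427D06Rik at 0.256, with Ugt2b34 at 0.466 and Slc34a2 at 0.479. Nearest to Sox7 was Slfn3 at 0.0728, with Lor and Npy next, and nearest to Foxa2 was Dis3l2 at 0.0678, with Akap5 and Myh3 next. Nearest to Hnf4a was Trim14 at 0.0556, with Slfn8 and Hdc next, and nearest to Lrp2 was Ube2t at 0.0808, with Npl and Map7d2 next. Nearest to Dab2 was Dram1 at 0.0310, with Pwwp3b and Ptpn14 next, and nearest to Sparc was Mtarc2 at 0.0337, with Kdsr and Sfi1 next. The distance is not scaled and grows with a gene's range over the arrays, which was 3.64 for Cubn, 1.32 for Dab2 and 0.99 for Sparc, so distances are not compared between members. Each distance rests on 4 arrays, whose values share the centring.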

How the data were processed

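Total RNA of 4 mouse cell populations was labelled with biotin and measured on 1-colour arrays, 1 per population. The authors deposited 1 table of log2 values for 28853 probe sets; per the submitters' processing notes they were made with GCRMA, with no version or log base given. The centring per probe set was seen in the values. Probe sets with 1 gene symbol (21789; 1621 had several and 5443 none) were averaged per gene, which gave 19938 genes; 21698 gene identifiers matched GRCm38.p6 and 0 symbols changed. limma 3.58.1 in R 4.3.3 fitted 3 groups (iPS, ES, MEF) and, separately, the 3 lines against MEF, with Benjamini-Hochberg adjustment over all genes, and was tested on simulated data. A call needed an adjusted p under 0.05 and at least 1 log2. Single arrays were compared by value. Lines stood as replicates, and p-values measure only the spread between these samples, which may be technical; the number of arrays limits precision. The members and lists were chosen with earlier results of these data known. Named were all members, list genes called or 1 log2 from ES on both iPS arrays (largest first, at most 6 per list), and the 3 closest genes per member; further list genes were named after their values were seen. Alternatives covered array scaling, probe set choice, fold minimum, a range filter, a variance trend and left-out arrays.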

Additional observations from a re-analysis of the deposited data

Results flagged for a closer look

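For 4 of the 10 genes both iPS lines lay above MEF while ES lay below it, a pattern found in 4.14% of all genes. Gata6 differed from MEF by 2.58 in iPS 178B5, 1.92 in iPS 492B4 and -0.82 in ES. Sox17 differed by 1.78, 0.82 and -0.53 in the same order, Cubn by 2.08, 3.12 and -0.53, and Hnf4a by 0.88, 0.45 and -0.17. The difference between the 2 effects is the iPS against ES contrast of the limma fit, since MEF cancels, and it did not pass for any of the 4, with adjusted p of 0.0996 for Gata6, 0.148 for Cubn, 0.231 for Sox17 and 0.261 for Hnf4a. The 3 values of each gene share the MEF array. No group held the 4 samples needed to look for an outlying array.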

How the results depend on the processing

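No paired analysis was possible because only the iPS group had more than 1 sample. None of the members' values reversed its direction under any setting run. In iPS against ES, 0 genes were called as deposited; with equal array medians 15 were higher and 29 lower, with reference centring 40 and 84 (1 member, Gata6), and with genes of a range under 0.2 log2 left out 148 and 182 (4 members: Gata4, Gata6, Cubn and Lrp2, with adjusted p of 0.0238, 0.00968, 0.0227 and 0.0311). That filter removes genes by the differences under test. It also called Sox17 and Sox7 higher in iPS than in MEF (adjusted p = 0.0346 and 0.0358). A fold minimum of 0.5 log2 gave 3087 genes higher and 3540 lower in iPS against MEF, 1294 and 1215 in iPS 178B5 against ES, 2058 and 1924 in iPS 492B4 against ES (9 members higher, 9 also in both lines) and 729 and 658 in iPS 492B4 against iPS 178B5 (4 members lower). In ES against MEF 2 members were lower with that minimum and with reference centring. Reference centring left 0 members higher and 1 lower by 1 log2 in iPS 492B4 against iPS 178B5. For the pluripotent lines against MEF, leaving out 1 line gave 0 to 5 members higher, 613 to 1981 genes higher and 744 to 2235 lower, the lowest gene counts without iPS 178B5; with equal array medians 0 members were higher. The 5 members called in iPS against MEF (Gata4, Gata6, Foxa2, Cubn and Lrp2) were called under each alternative that gave a test. The cause of these changes was not tested. With either iPS line left out, iPS against ES and iPS against MEF had no residual degrees of freedom and gave values only. The probe set with the largest range moved Dab2 alone among the members, to 2.46 in iPS 178B5 and 2.04 in iPS 492B4 against ES. The counts of members and of other lineage genes above ES in both lines were recomputed after seeing the data: by the largest range 6 members, by reference centring 12 other genes.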
